A study of Mus musculus with 12 samples.

Results

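Oxysterols and bile acids are made from cholesterol by a short series of hydroxylases and dehydrogenases, and 7 genes of this chemistry were followed in mouse bone marrow-derived mesenchymal stromal cells (MSCs). The genes were taken by symbol from the 55487 genes of the count table: the side-chain hydroxylases Ch25h and Cyp27a1, the ring hydroxylases Cyp7b1 and Cyp39a1, the dehydrogenase Hsd3b7, and the carriers Slc10a3 and Slco3a1. The choice used the link of these genes to the sterol chemistry of A1, a compound made of the bile acid cholic acid joined to the nuclear localization signal of hnRNPA1. The rule names no measured value, but the genes were chosen with earlier results of these data known. RNA was sequenced from 12 samples in 3 groups of 4. Control MSCs (labelled Negative) were left untreated, A1 MSCs received 50 μM A1 for 6 h, and A1 + OVA MSCs received 50 μM A1 together with 1 mg/mL ovalbumin (OVA), the chicken egg white protein used as antigen, for 6 h. All groups were WT primary cells from bone marrow of C57BL/6 mice, grown in the same serum-containing medium to near confluency before treatment. Such cells are the adherent part of femur marrow of female mice 6 to 8 weeks old, expanded in culture and stored at passage 9 or 10. For A1 + OVA, the labels' text on the medium also names insulin without a readable dose. A difference between A1 + OVA and A1 therefore cannot be assigned to OVA by this design. No group received OVA alone, so any effect of OVA without A1 was not measured. The labels do not say whether the 4 samples of a group came from separate cultures or animals, and p-values then measure only the spread between these samples, which may be technical.

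As background, Ch25h and Cyp27a1 add a hydroxyl group to the side chain of cholesterol and so form oxysterols. Cyp7b1 and Cyp39a1 add one to the sterol ring of oxysterols, and Hsd3b7 then oxidizes the ring-hydroxylated product on the way to a bile acid. Hepatocytes run the whole route, whereas other cell types, among them macrophages and stromal cells, use parts of it to make or clear oxysterols that act on the LXR nuclear receptors and on the receptor Gpr183. Slc10a3 belongs by sequence to the sodium and bile acid cotransporter family, although its substrate is not established, and Slco3a1 encodes an organic anion transporting polypeptide.

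RefSeq promoters (GRCm38.p6) were at hand for 3 of the 7 genes, Ch25h, Cyp27a1 and Hsd3b7. The 250 bases before the start are shown for both side-chain hydroxylases, because in these cells reads of Ch25h were found in every sample and reads of Cyp27a1 in 2 samples. Capitals mark matches to any of 5 motifs searched on both strands, and the sequences run 5′ to 3′ on the gene's strand.
Ch25h, chr19:34475149-34475398, minus strand: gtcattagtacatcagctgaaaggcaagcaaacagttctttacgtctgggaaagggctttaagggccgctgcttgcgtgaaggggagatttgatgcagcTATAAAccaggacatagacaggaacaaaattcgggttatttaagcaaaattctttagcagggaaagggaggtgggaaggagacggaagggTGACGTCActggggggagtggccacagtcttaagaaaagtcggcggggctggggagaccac
Cyp27a1, chr1:74713285-74713534, plus strand: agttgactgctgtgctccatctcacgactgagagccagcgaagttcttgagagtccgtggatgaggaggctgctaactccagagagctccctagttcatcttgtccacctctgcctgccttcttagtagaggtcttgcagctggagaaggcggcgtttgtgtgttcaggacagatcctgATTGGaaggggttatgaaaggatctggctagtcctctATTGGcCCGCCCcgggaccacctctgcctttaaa
The Ch25h window held the cAMP response element TGACGTCA 61 to 54 bases before the start. This motif was present in 1.55% of 32851 mouse promoters of the same length. The TATA box letters TATAAA, present in 12.4%, lay 151 to 146 bases before the start. The Cyp27a1 window held the GC box GGGCGG (32.7% of promoters) once and CCAAT (33.8%) at 2 places, all on the opposite strand. The Hsd3b7 window held 1 GC box. None of the 3 windows held the letters TCACNCCAC of the sterol regulatory element (1.05% of promoters). No motif overlapped another in these windows, and a match describes letters only.

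The libraries held 13702348 to 16881995 counts each, with A1 the shallowest group at 13702348 to 14347870. A count of 3, taken as the smallest signal, corresponded to 0.177 to 0.229 CPM, the counts of a gene scaled to a common library size. CPM are given after TMM scaling, which adjusts for composition between libraries. After the filter on low counts, 11314 protein-coding genes were tested, 3 of the 7 genes among them (Cyp39a1, Slc10a3 and Ch25h). Ch25h passed the filter only through the A1 + OVA group, where it was high. Among MSC markers, Cxcl12, Itgb1, Pdgfrb, Pdgfra, Vcam1 and Cd44 were abundant, whereas Thy1 (CD90) had 3 counts or fewer in 11 samples and 17 in control replicate 2, and Nt5e (CD73) had 7 to 14. The summed level of the 12 MSC markers was 6274 to 6641 CPM in control, 4799 to 5023 in A1 and 4715 to 4948 in A1 + OVA. Of 10 tested in A1, 3 were higher and 4 lower (31.7% and 31.1% of all tested genes were called higher and lower). In A1 + OVA, 2 were higher and 5 lower (29.7% and 27.9% of all tested genes). Cxcl12 made up 59.8% to 62.3% of the control sum and fell, and the other 11 markers summed to 2436 to 2637 CPM in control, 3234 to 3454 in A1 and 3061 to 3294 in A1 + OVA. The 9 macrophage and blood cell markers summed to 3.20 to 4.20, 4.43 to 5.27 and 3.86 to 5.30 CPM, with Cd163 at 0 and Ptprc at 4 counts or fewer. The 2 tested ones were Cd68, with 16 to 31 counts and no call against control, and Mrc1, which rose from 1.48 to 3.01 CPM in A1 (log2 change 1.01, adjusted p = 4.71e-05) and was at 1.94 CPM in A1 + OVA (adjusted p = 0.0983). The 5 adipocyte markers, with Lep at 0, summed to 64.2 to 70.5, 62.7 to 71.1 and 66.0 to 78.9 CPM, nearly all from Fabp4. Of their 3 tested genes, 2 were lower in A1 (31.1% of all tested genes). In A1 + OVA, 2 were lower and 1 higher (27.9% and 29.7% of all tested genes). The 5 osteoblast markers, with Ibsp at 0, summed to 15.7 to 16.5, 9.95 to 13.5 and 10.6 to 11.7 CPM, and of the 2 tested Alpl was lower and Dmp1 higher in both treatments. The 6 hepatocyte markers, with Serpina1a at 0, summed to 0.382 CPM or less in every sample, and the 5 endothelial markers to 0.916 CPM or less.

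Cyp39a1 had the largest change of the 3 tested genes with A1. It encodes an enzyme of the endoplasmic reticulum that hydroxylates the ring of oxysterols, and it lies at chr17:43667425-43751431 on the plus strand (GRCm38). Its level in control MSCs was 24.1, 22, 18.8 and 21.3 CPM in replicates 1 to 4. In A1 it was 8.10, 7.79, 7.48 and 7.84 CPM, and in A1 + OVA it was 10.6, 9.12, 7.92 and 8.81 CPM. All 8 treated samples lay below all 4 control samples, and the A1 and A1 + OVA samples overlapped. Of the tested genes, 26.4% were lower without overlap in A1 and 24% in A1 + OVA. The mean was 21.6 ± 2.17 CPM in control (SD, n = 4), 7.80 ± 0.254 in A1 and 9.11 ± 1.11 in A1 + OVA.

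Cyp39a1 fell by 1.46 on the log2 scale in A1 against control (SE 0.09, 95% interval -1.66 to -1.27), a level 2.76-fold lower (adjusted p = 1.01e-11, edgeR). In A1 + OVA against control it fell by 1.25 (SE 0.09, interval -1.43 to -1.06), 2.37-fold lower (adjusted p = 7.23e-11). Calls were common in these comparisons: 62.7% of the tested genes were called in A1 against control and 57.6% in A1 + OVA against control, while 21% and 17.7% were called with a log2 change of at least 0.5 in size. Ranked by log2 change from the most decreased, Cyp39a1 stood at 146 of 11314 in A1 (the lowest 1.29%) and at 157 in A1 + OVA (the lowest 1.39%). The difference between A1 + OVA and A1 was 0.22 (SE 0.11, interval -0.0041 to 0.44, adjusted p = 0.19) and was not called. Both treatments were compared with the same 4 control samples. In RNA from a whole culture, fewer cells that express a gene and less RNA per cell cannot be told apart. The MSC marker sum given above moved down in the same samples through Cxcl12, while the sum of the other 11 markers moved up. Among the 3 MSC markers called higher in A1 were Cd44, from 175 to 458 CPM, and Itgb1, from 1451 to 2225 CPM. The 4 called lower in A1 were Cxcl12, Pdgfra, Vcam1 and Ly6a. The last 3 fell by 0.99, 0.95 and 0.59 (adjusted p = 7.1e-13, 4.74e-15 and 8.77e-08, edgeR). In A1 + OVA they fell by 1.16, 0.89 and 0.50 (adjusted p = 5.91e-14, 1.34e-14 and 8.49e-07). Of the tested adipocyte markers, Adipoq fell by 1.71 in A1 and by 1.67 in A1 + OVA (adjusted p = 0.000148 and 0.000135). Cidec fell by 0.78 and 0.54 (adjusted p = 0.00802 and 0.0432). Fabp4, nearly all of the adipocyte sum, differed by 0.02 in A1 (adjusted p = 0.8) and rose by 0.17 in A1 + OVA (adjusted p = 0.011). Of the osteoblast markers, Alpl fell by 0.75 and 0.69 (adjusted p = 1.71e-07 and 4.19e-07). Dmp1 rose by 1.71 and 0.97 (adjusted p = 3.61e-07 and 0.00104). The part of these markers in the change of Cyp39a1 was not tested.

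**Figure D1:**
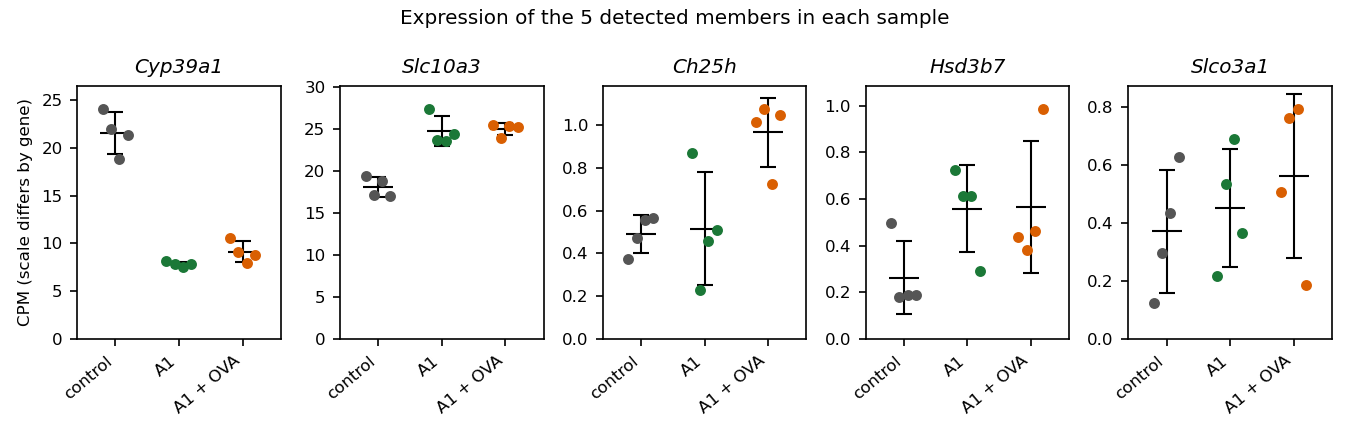
CPM (y axis, from 0, with its own scale for each gene) of the 5 genes detected beyond 3 counts, in control, A1 and A1 + OVA MSCs; points are samples in replicate order and bars the mean and SD (n = 4). The 8 treated samples lie below control for Cyp39a1 and above it for Slc10a3, the 4 A1 + OVA samples lie above control for Ch25h, and the groups overlap for Hsd3b7 and Slco3a1.

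Ch25h, the cholesterol side-chain hydroxylase known as an interferon-induced enzyme of macrophages, was near the lower end of the measurable range. It is a gene of 1387 exon bases at chr19:34473778-34475164 on the minus strand. It had 6, 8, 9 and 9 counts in control, 12, 3, 6 and 7 in A1, and 14, 17, 11 and 17 in A1 + OVA. These correspond to 0.371, 0.473, 0.557 and 0.564 CPM in control, 0.868, 0.229, 0.458 and 0.508 in A1, and 1.02, 1.08, 0.726 and 1.05 in A1 + OVA. The A1 + OVA samples were all above the control samples, whereas the A1 samples lay on both sides of them and A1 replicate 1 reached into the A1 + OVA range. Of the tested genes, 25.4% were higher without overlap in A1 + OVA against control.

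The log2 difference of Ch25h in A1 + OVA against control was 0.97 (SE 0.30, interval 0.34 to 1.60, 1.96-fold, adjusted p = 0.00956). The A1 + OVA group that gave this difference is also the one that let the gene pass the filter, so the p is not independent of the filter. In the fit of 16071 genes without the filter the difference was 0.96 (adjusted p = 0.0145). In A1 against control the difference was 0.08 (SE 0.36, interval -0.67 to 0.84, adjusted p = 0.857). In A1 + OVA against A1 it was 0.88 (SE 0.32, interval 0.23 to 1.54, adjusted p = 0.0694), which missed the threshold, and 12.9% of the tested genes were called in that comparison. Without A1 replicate 1 this difference was 1.25 (adjusted p = 0.0252) and the difference of A1 against control turned to -0.29 (adjusted p = 0.569); it was also below 0, at -0.03, without control replicate 1. The antisense RNA gene Gm26902 overlaps 159 of the 1387 exon bases and had 2 to 7 counts. The macrophage and blood cell marker sum was 3.20 to 4.20 CPM in control, 4.43 to 5.27 in A1 and 3.86 to 5.30 in A1 + OVA. Its part in the values of Ch25h was not tested.

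Cyp27a1, the mitochondrial side-chain hydroxylase that opens the alternative bile acid route, was not detectable at this depth. It lies at chr1:74713574-74737892 on the plus strand. It had 0 counts in all control and A1 samples, and 1, 2, 0 and 0 counts in A1 + OVA replicates 1 to 4, all below 3 counts. Cyp7b1, the ring hydroxylase that acts on the products of Ch25h and Cyp27a1, lies at chr3:18071950-18243338 on the minus strand. It had 0 counts in each of the 12 samples, which allows up to 0.177 to 0.229 CPM per library for counting error only. No fold change is given for either gene. Of both ring hydroxylases, reads were thus found for Cyp39a1 alone.

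Hsd3b7, the dehydrogenase that follows ring hydroxylation, lies at chr7:127800604-127803802 on the plus strand and did not pass the filter. It had 8, 3, 3 and 3 counts in control, 10, 8, 8 and 4 in A1, and 6, 6, 7 and 16 in A1 + OVA. The means were 0.262 ± 0.156 CPM in control (SD, n = 4), 0.559 ± 0.187 in A1 and 0.566 ± 0.282 in A1 + OVA. Both treated groups overlapped control, through control replicate 1. The exact two-sided permutation test gave p = 0.0571 for A1 against control, 0.114 for A1 + OVA against control and 1 for A1 + OVA against A1, where the smallest p that 4 against 4 samples allow is 0.0286. A fit of 16071 genes without the filter gave a log2 difference of 1.07 for A1 (adjusted p = 0.0577) and 1.11 for A1 + OVA (adjusted p = 0.0439) against control. The latter was 0.69 (adjusted p = 0.338) without A1 + OVA replicate 4, 0.96 (adjusted p = 0.121) without control replicate 2, 0.98 (adjusted p = 0.106) without control replicate 3 and 0.99 (adjusted p = 0.108) without control replicate 4. The former was 1.56 (adjusted p = 0.0143) without control replicate 1 and 1.29 (adjusted p = 0.0264) without A1 replicate 4. In the annotation, 1717 of the 2769 exon bases of Hsd3b7 (62.0%) are shared on the same strand with the protein-coding gene Gm49388, which had 0 counts in every sample. How reads in those bases were counted is not given in the sources used here, so the level of Hsd3b7 is uncertain.

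Slc10a3 had the highest level per length of the 7 genes and was higher in both treatments. It lies at chrX:74369217-74373349 on the minus strand. Its level was 19.4, 17.2, 18.9 and 17.1 CPM in control, 27.4, 23.7, 23.6 and 24.4 CPM in A1, and 25.4, 23.9, 25.4 and 25.2 CPM in A1 + OVA. All 8 treated samples lay above all control samples, beside 28% of the tested genes that were higher without overlap in A1 and 25.4% in A1 + OVA. Slc10a3 rose by 0.45 on the log2 scale in A1 against control (SE 0.07, interval 0.31 to 0.59, 1.37-fold, adjusted p = 4.68e-06) and by 0.46 in A1 + OVA against control (SE 0.07, interval 0.33 to 0.60, 1.38-fold, adjusted p = 3.24e-06). Neither change reached a log2 size of 0.5. The difference between A1 + OVA and A1 was 0.01 (interval -0.12 to 0.14, adjusted p = 0.944). Slc10a3 shares 258 of its 2023 exon bases (12.8%) on the same strand with Ubl4a, which had 684 to 927 counts. How reads in those bases were counted is not given in the sources used here.

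Slco3a1, the other carrier, lies at chr7:74275419-74554780 on the minus strand and was at the limit of detection. It had 2, 5, 7 and 10 counts in control, 3, 7, 9 and 5 in A1, and 7, 12, 12 and 3 in A1 + OVA, and all 3 groups overlapped. The means were 0.370 ± 0.213, 0.450 ± 0.204 and 0.561 ± 0.281 CPM (SD, n = 4). Exact two-sided permutation tests gave p = 0.6 for A1 and 0.314 for A1 + OVA against control, and 0.514 for A1 + OVA against A1. In the fit without the filter the log2 differences were 0.27, 0.58 and 0.31, with adjusted p = 0.687, 0.315 and 0.73 (edgeR). No difference was detectable at this depth.

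**Figure D2:**
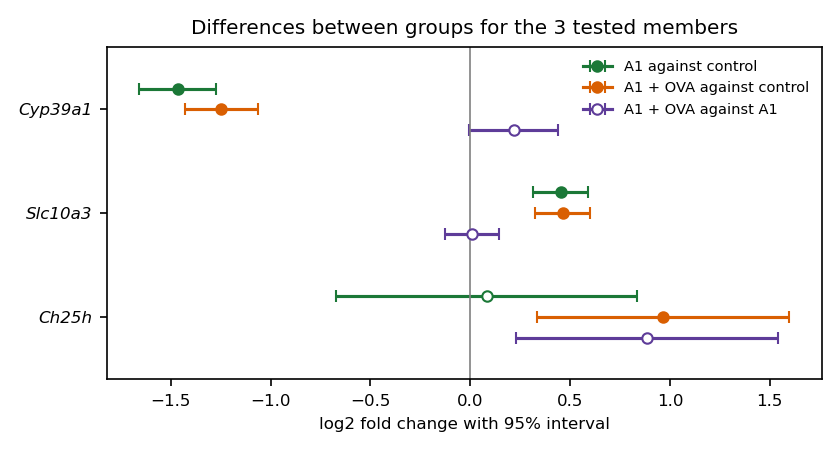
Log2 fold change with its 95% interval (x axis) for the 3 tested genes in the 3 comparisons; filled points passed an adjusted p of 0.05 and open points did not. Cyp39a1 lies at -1.46 and -1.25 against control and Slc10a3 at 0.45 and 0.46, while Ch25h, which the A1 + OVA group alone brought through the low-count filter, lies at 0.97 in A1 + OVA against control with wider intervals.

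Levels of different genes were compared per kb of exon. In control MSCs the order was Slc10a3 at 8.96 ± 0.579 CPM per kb (SD, n = 4), Cyp39a1 at 7.06 ± 0.711, Ch25h at 0.354, Hsd3b7 at 0.0945 and Slco3a1 at 0.0437, with Cyp27a1 and Cyp7b1 at 0. The median of the tested genes was 7.42 CPM per kb, so Slc10a3 and Cyp39a1 lay near the middle of them (above 55.0% and 48.5% of tested genes) and Ch25h near the lower end (above 5.11%). The samples of Slc10a3 (8.43 to 9.57) and Cyp39a1 (6.16 to 7.88) did not overlap in control, whereas those of Hsd3b7 (0.0640 to 0.179) and Slco3a1 (0.0146 to 0.0740) did. In A1 the samples of Ch25h (0.165 to 0.626) overlapped those of Hsd3b7 (0.105 to 0.261). In A1, Slc10a3 was at 12.3 CPM per kb and Cyp39a1 at 2.56 (above 63.8% and 25.2% of tested genes), and in A1 + OVA they were at 12.4 and 2.98.

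**Figure D3:**
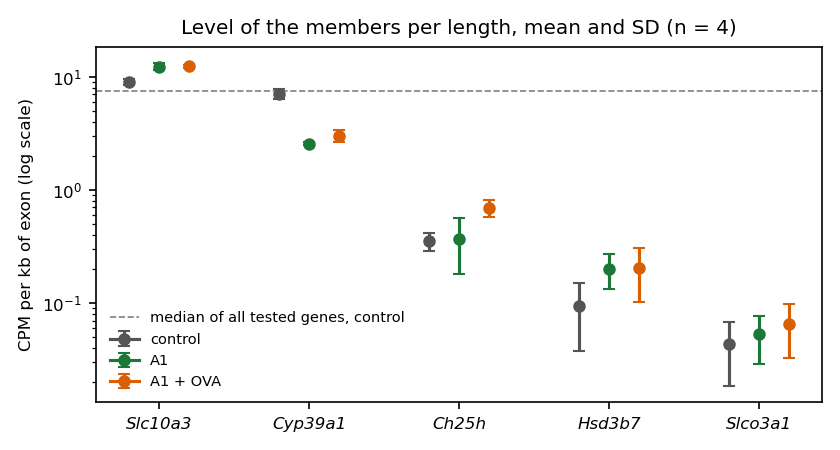
Level per length (CPM per kb of exon, log axis) of the 5 detected genes in control, A1 and A1 + OVA MSCs, as mean and SD of 4 samples; the dashed line is the control median of the tested genes (7.42). Slc10a3 and Cyp39a1 are near that line in control and move apart with treatment, while Ch25h, Hsd3b7 and Slco3a1 lie far below it.

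The genes whose log2 CPM followed the 3 tested genes most closely over the 12 samples were named by Pearson's r, as a description in which the samples share 3 treatment groups. For Cyp39a1 they were Abhd5 (r = 0.992), a coactivator of triglyceride lipolysis, and Sept6 (r = 0.992), a septin. Abhd5 had mean levels of 61.0 CPM in control, 41.8 in A1 and 45.3 in A1 + OVA. For Slc10a3 they were Mfge8 (r = 0.981), a secreted bridge in the uptake of dying cells, and Pgam5 (r = 0.977), a mitochondrial phosphatase. For Ch25h they were the lysosomal sulfatase Galns (r = 0.865) and Nhlrc3 (r = 0.850), and its low counts limit these values.

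Other enzymes and electron donors of the route were measured as a list of 19 genes, of which 10 were tested. In A1 against control 5 were lower, 1 was higher and 4 were not called (31.1% and 31.7% of all tested genes were called lower and higher). The median log2 change was -0.34, beside -0.0017 for all tested genes. Fdxr, the reductase that supplies electrons to mitochondrial P450 enzymes such as Cyp27a1, had 21.3, 18.9, 19.2 and 20.6 CPM in control, 11.0, 8.47, 10.6 and 10.7 in A1 and 10.5, 10.8, 11.6 and 11.7 in A1 + OVA, with no overlap of treated and control samples. It fell by 0.97 in A1 (SE 0.08, adjusted p = 1.06e-09) and by 0.84 in A1 + OVA (SE 0.08, adjusted p = 6.31e-09).

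Fdx1, the ferredoxin that Fdxr reduces, differed by 0.05 in A1 (adjusted p = 0.612). Of the peroxisomal steps that shorten the side chain, Amacr, a racemase, fell by 0.54 (adjusted p = 0.00311), Abcd3, an importer of the precursors, by 0.45 (adjusted p = 4.27e-09), and Hsd17b4, a bifunctional enzyme of the shortening, by 0.39 (adjusted p = 8.23e-09). Por, which donates electrons to P450 enzymes of the endoplasmic reticulum such as Cyp39a1, rose by 0.19 (adjusted p = 0.000517). Por and Fdx1 were named after their values were seen, as were Nr1h2 and Nr1h4 among the receptors. In A1 + OVA against control 5 were again lower and 1 higher, with a median of -0.16 (27.9% and 29.7% of all tested genes). Cyp7a1 and Cyp8b1, the liver enzymes of the classic route, were among the 9 genes of the list with 3 counts or fewer in every sample.

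**Figure D4:**
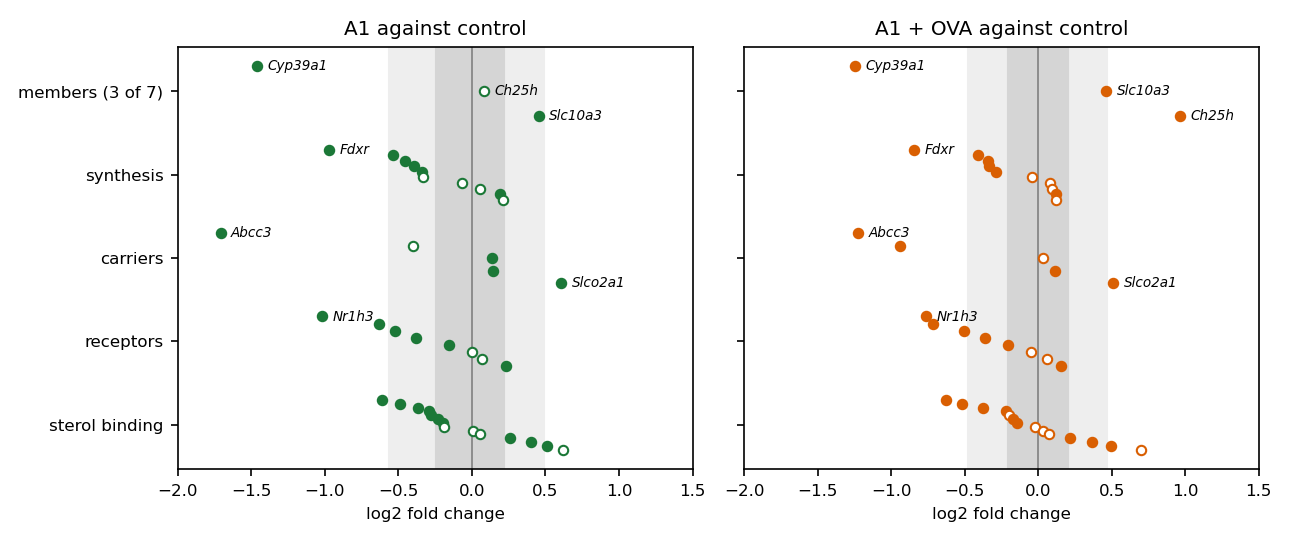
Log2 fold change (x axis) of every tested gene of the 7 and of the 4 lists in A1 (left) and A1 + OVA (right) against control; filled points passed an adjusted p of 0.05, the dark band spans the middle 50% and the light band the middle 80% of all tested genes. Among the genes with names in the picture, Cyp39a1, Fdxr, Abcc3 and Nr1h3 lie left of the light band in both panels and Slco2a1 lies right of it; of the others, Rora and Osbpl1a also lie left in both, and Star, which was not called, lies right.

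Carriers were mostly not detected. Of 24 other bile acid and organic anion carriers, 18 had 3 counts or fewer in all samples and 5 were tested. In A1, 3 of these were higher and 1 lower (31.7% and 31.1% of all tested genes), with a median log2 change of 0.13. Abcc3, an export pump for bile acid conjugates, had 3.47, 3.61, 4.33 and 3.51 CPM in control, 1.30, 0.840, 1.15 and 1.23 in A1 and 1.74, 1.58, 1.39 and 1.66 in A1 + OVA. It fell by 1.71 in A1 (SE 0.17, adjusted p = 2.02e-08) and by 1.22 in A1 + OVA (SE 0.15, adjusted p = 6.78e-07), without overlap with control. Slco2a1, known as a prostaglandin carrier, rose by 0.61 in A1 (from a mean of 71.9 to 109 CPM, adjusted p = 1.93e-10) and by 0.51 in A1 + OVA (adjusted p = 3.61e-09). The rises of Abcc4 (0.14, adjusted p = 0.0136) and Slc10a7 (0.13, adjusted p = 0.027) in A1 were small. That of Abcc4 was lost without control replicate 1 (adjusted p = 0.0507) or A1 replicate 4 (0.0623), and that of Slc10a7 without control replicate 2 (0.0529), control replicate 4 (0.0831), A1 replicate 1 (0.0806) or A1 replicate 3 (0.114), and with DESeq2 (0.0553). In A1 + OVA 2 of the 5 rose and 2 fell (29.7% and 27.9% of all tested genes), and the median was 0.03. One of these rises was that of Abcc4 (0.12, adjusted p = 0.0444), which passed in 5 of 20 alternatives.

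Of 16 receptors that bind or act with oxysterols and bile acids, 8 were tested. In all samples 5 had 0 counts, among them the oxysterol receptor Gpr183 and the bile acid receptor Gpbar1. Nr1h4 of this list was not tested. It had 3 to 6 counts in control samples and 0 to 1 in A1 and A1 + OVA samples. In A1, 5 of the 8 tested were lower and 1 higher (31.1% and 31.7% of all tested genes). The median log2 change was -0.27 beside -0.0017 for all tested genes. In A1 + OVA 5 were lower and 1 higher (27.9% and 29.7%), with a median of -0.28 beside 0.0036. Nr1h3, which encodes the oxysterol receptor LXRα, had 5.63, 5.97, 6.00 and 5.20 CPM in control, 3.25, 3.05, 2.52 and 2.40 in A1 and 4.06, 3.17, 3.04 and 3.27 in A1 + OVA. It fell by 1.02 in A1 (SE 0.13, adjusted p = 9.4e-07) and by 0.76 in A1 + OVA (SE 0.12, adjusted p = 2.17e-05), with no overlap with control. Nr1h2, the gene of the other LXR, differed by 0.00 in A1 (SE 0.07, adjusted p = 0.994). Rora fell by 0.63 (adjusted p = 7.76e-07), Vdr, the vitamin D receptor that also binds lithocholic acid, by 0.52 (adjusted p = 4.35e-09), and Rxra, the partner of LXR and Vdr, by 0.38 (adjusted p = 1.77e-06) in A1. Vdr was lower again in A1 + OVA than in A1, with a log2 difference of -0.19 (adjusted p = 0.017), a call lost without A1 replicate 3 (adjusted p = 0.0526) or A1 + OVA replicate 3 (0.0571).

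The sterol-binding and transfer proteins were expressed more widely, with 14 of 16 tested. In A1, 7 were lower, 3 higher and 4 not called (31.1% of all tested genes lower and 31.7% higher), with a median of -0.19. In A1 + OVA 6 were lower and 3 higher (27.9% and 29.7%), with a median of -0.08. Osbpl1a fell by 0.61 (adjusted p = 3.46e-11) and Stard4, a soluble cholesterol carrier, by 0.49 (adjusted p = 1.78e-10) in A1. Stard3, a sterol tether of late endosomes, rose by 0.51 (adjusted p = 3.72e-06) and Osbpl5 rose by 0.40 (adjusted p = 3.09e-05). In A1 + OVA the changes of these 4 genes had the same signs, at -0.52, -0.63, 0.37 and 0.49. Stard4 was also lower in A1 + OVA than in A1, with a log2 difference of -0.14 (adjusted p = 0.0171), a call lost without A1 replicate 4 (adjusted p = 0.0616), A1 + OVA replicate 2 (0.0546) or A1 + OVA replicate 3 (0.0531). It and Vdr were the 2 of 37 tested genes of the 4 lists called between both treatments, a comparison in which 6.05% of all tested genes were called higher and 6.81% lower.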

How the data were processed

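MSC RNA was sequenced from 12 samples as strand-specific poly(A) libraries. The authors aligned reads to GRCm38 with STAR (2.7, per the processing notes) and deposited raw counts per gene from featureCounts (2.0). Gene names, lengths and positions came from GENCODE M21, an earlier release than the one counted on, which holds 99.53% of the identifiers. Of 21974 protein-coding genes, 11314 passed edgeR's filterByExpr. TMM-scaled counts entered 1 quasi-likelihood fit of all samples in edgeR (version 4.0.16 under R 4.3.3), with Benjamini-Hochberg adjustment over the tested genes and a threshold of 0.05. Of the members below the filter, Hsd3b7 and Slco3a1, with more than 3 counts in some sample, had exact permutation tests. Genes named were the 7 members, the 2 genes most correlated with each tested member, and up to 4 called genes per list with the largest change. Nr1h2, Nr1h4, Fdx1, Por, Gpr183, Gpbar1, Cyp7a1, Cyp8b1, Star and single cell markers were named outside this rule after their values were seen. Members and lists were chosen with earlier results of these data known. Alternatives covered normalization, DESeq2 (1.42.0), filters, gene classes, samples in the fit, replicate blocks and leaving out each sample. In simulated data with 200 of 11314 genes changed in A1, edgeR called 98% of these and 9 unchanged genes. Many more genes were called in the real data, so the simulation did not check such broad change. Intervals for single counts cover counting error only. Reads were not analysed here.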

Additional observations from a re-analysis of the deposited data

Results flagged for a closer look

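Of 69 groups of 4 samples (23 genes in 3 groups), those of Cyp27a1 and Cyp7b1, at 3 counts or fewer, were not examined. In 5 of the rest, 1 sample stood apart, measured as its gap to the nearest sample divided by the range of the group. Chance alone marks about 1 in 20 such groups. Hsd3b7 was highest in control replicate 1 (0.495 CPM against 0.188 for the next, ratio 0.966, from 8 against 3 counts). It was also highest in A1 + OVA replicate 4 (0.986 against 0.462 CPM, ratio 0.864). Slc10a3 was lowest in A1 + OVA replicate 2 (23.9 against 25.2 CPM, ratio 0.848), which still lay above every control sample. Fdxr was lowest in A1 replicate 2 (8.47 against 10.6 CPM, ratio 0.849). Abcc3 was highest in control replicate 3 (4.33 against 3.61 CPM, ratio 0.838).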

How the results depend on the processing

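Over 20 alternatives, the log2 change of Cyp39a1 was -1.52 to -1.41 in A1 and -1.32 to -1.19 in A1 + OVA against control, and that of Slc10a3 was 0.40 to 0.49 and 0.44 to 0.50, each called every time. Ch25h in A1 + OVA against control was 0.86 to 1.08 in the 19 alternatives that tested it, most of which admit it through the A1 + OVA group and so are no independent support; without the filter its adjusted p was 0.0145, and with at least 10 counts required in every sample it was not tested. When each sample was left out in turn, Ch25h ranged from -0.294 to 0.319 in A1 against control (below 0 without control replicate 1, -0.027, or A1 replicate 1, -0.294) and from 0.649 to 1.25 in A1 + OVA against A1. In A1 + OVA against A1, Slc10a3 ranged from -0.016 to 0.0582 (-0.0101, -0.016 and -0.0012 without A1 replicates 2, 3 and 4), Abcc4 from -0.0693 to 0.00964, Rxra from -0.00731 to 0.0574 (-0.00728 without A1 + OVA replicate 2) and Hsd3b7, fitted without the filter in an alternative chosen after seeing the data, from -0.381 to 0.193 (-0.177 without A1 replicate 4). The number called in A1 + OVA against A1 was 0 to 1 for the 7 genes, the synthesis list and the receptors, and 0 to 2 for the sterol-binding list; the synthesis list also had 1 with upper-quartile normalization, and the sterol-binding list 2 with only the groups compared. The calls of Amacr and Abcc4 in A1 + OVA against control held under 13 and 5 of 20 alternatives. The mean log2 CPM of Ch25h in control was -0.948 with a prior count of 0.5 and -0.691 with 2, and Slco3a1 was at 0.0806 CPM per kb by its longest transcript. Of 1136 fits under alternatives, 1089 kept direction and side of the threshold, 36 lost a call, 3 gained one and 8 changed sign. Mean r of deviations was 0.0215 for samples of the same replicate number and -0.00704 for others. The closest sample had the same number for 4 of 12 samples. These values cannot show whether equal numbers mark shared cultures, which the labels do not say. With the number as a replicate block, Cyp39a1 in A1 was at -1.46 and 2 sterol-binding genes were called in A1 + OVA against A1. Depth limits Ch25h, Hsd3b7, Slco3a1 and Cyp27a1 to 17 counts or fewer per sample.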
